A study of Mus musculus with 4 samples.

Results

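Granzymes, perforin and the other proteins of the cytotoxic granule were examined in splenic regulatory T (Treg) cells that lack Setd2. The set held 10 genes, out of 24087 genes in the deposited table, and its members were taken by symbol: the granzymes Gzma, Gzmb, Gzmk and Gzmm, the pore-forming protein Prf1, the granule membrane protein Nkg7, the chemokine Ccl5, the lectin receptors Klrg1 and Klrd1, and the granzyme B inhibitor Serpinb9. Treg cells were sorted as CD3+CD4+YFP+ from the spleen of C57BL/6 mice at steady state. KO mice were Foxp3Cre-YFPSetd2f/f and CTRL mice were Foxp3Cre-YFPSetd2f/+ littermates, so both genotypes carried the Cre-YFP allele at Foxp3, which acts in Foxp3+ cells, and CTRL mice carried 1 floxed Setd2 allele as well. Each genotype had 2 libraries (numbered 1 and 2), made from about 1000000 cells of 2 pooled mice apiece. Mice were 6 to 12 weeks old by a general statement in the methods, and no separate age was given for these pools. With 2 pools per genotype, p-values measure the spread between pools.

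Setd2 encodes the enzyme that trimethylates lysine 36 of histone H3 in the bodies of transcribed genes. Granzymes are serine proteases that cytotoxic lymphocytes store in granules bound to the proteoglycan serglycin and release towards a target cell, where perforin gives them access to the cytosol. Activated Treg cells can express granzyme B, and Klrg1 marks terminally differentiated effector T cells and a subset of effector Treg cells. CD8 T cells and NK cells express the same genes at high levels, so their markers are reported with the results.

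Values are FPKM (fragments scaled to gene length and to library size), which allow levels to be compared between genes. The libraries held at least 30578092 to 33186372 fragments assigned to genes. CTRL 1 held the fewest fragments but had 19100 genes above 0 FPKM. CTRL 2, KO 1 and KO 2 had 15913, 16410 and 16180. The cause was not tested, and low values in CTRL 1 are to be read with this in mind. Setd2 was at 23.4 and 25.3 FPKM in CTRL libraries 1 and 2, against 21.3 and 19.5 FPKM in the KO libraries (-0.24 on the log2 scale, adjusted p 0.0970), which covers the whole gene and not the floxed part. Cd4 and Foxp3 define the sorted cells. Cd4 was at 277.3 and 298.6 FPKM in CTRL libraries 1 and 2, against 268.0 and 268.0 FPKM in KO (-0.10 on the log2 scale, adjusted p 0.286 by limma). Foxp3 was at 120.6 and 139.8 FPKM in the CTRL libraries, compared with 111.6 and 119.2 FPKM in KO (-0.17 on the log2 scale, adjusted p 0.238). Within each genotype, the library with the number 1 had the higher summed level of myeloid, of B and plasma cell and of erythroid markers (Lyz2 at 113.6 and 153.1 FPKM in CTRL 1 and KO 1, compared with 71.9 and 60.0 FPKM in CTRL 2 and KO 2).

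To determine which cytotoxic genes differed between genotypes, KO was compared with CTRL by limma on log2(FPKM + 1) over all 11399 genes with at least 1 FPKM in at least 2 libraries, and a gene was called when its adjusted p (Benjamini-Hochberg) was under 0.05. Gzmb, Gzma, Gzmk and Ccl5 rose in KO, by 1.34, 1.04, 0.68 and 0.56 on the log2 scale. Prf1, Nkg7, Gzmm, Klrd1, Klrg1 and Serpinb9 did not pass the threshold. All 10 genes were tested. The 4 called higher and 0 called lower compare with 5.1% called higher and 4.65% called lower of all genes tested. Gzmk passed the filter on low values through the KO libraries only, and of the other 9 members 3 were called higher. The members, Gzmk among them, had a median log2 fold change of 0.26, compared with -0.02 for all genes tested. They were chosen with earlier results of these data known, so neither the count of calls nor the median tests the set. Both KO libraries lay on one side of both CTRL libraries for 6 of the 10 genes, an arrangement found in 64.5% of all genes tested. In bulk RNA, more cells expressing a gene and more RNA per cell cannot be told apart, and the same holds for a decrease.

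**Figure D1:**
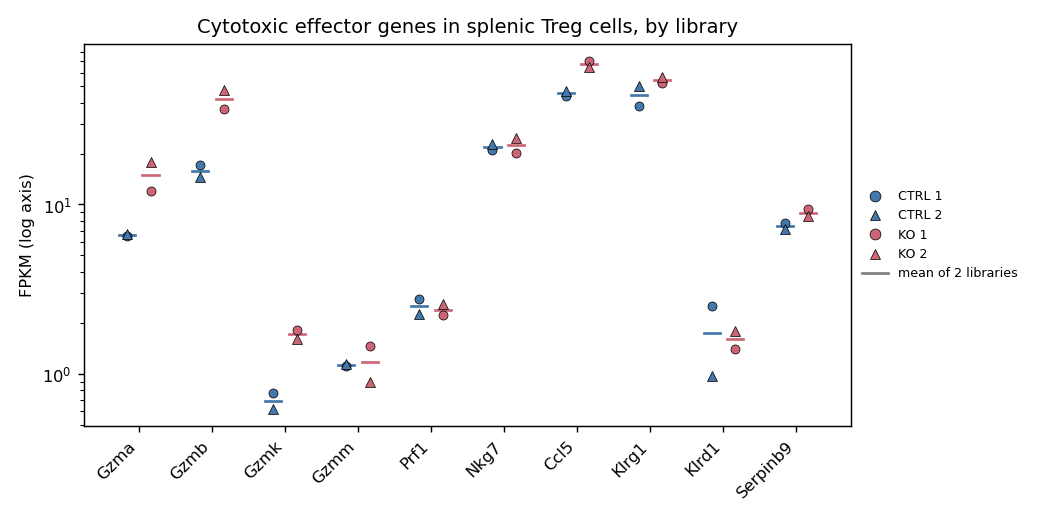
FPKM of the 10 cytotoxic effector genes on a log axis. Circles and triangles are the libraries numbered 1 and 2, blue for CTRL and red for KO, and horizontal lines are means of 2 libraries. For Gzma, Gzmb, Gzmk, Ccl5, Klrg1 and Serpinb9 both KO libraries lie above both CTRL libraries.

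Among the granzymes, granzyme B had the highest level. Gzmb (ENSMUSG00000015437, chromosome 14, 56258838 to 56262260, minus strand, GRCm38) was at 17.0 FPKM in CTRL 1 and 14.6 FPKM in CTRL 2, and at 36.6 FPKM in KO 1 and 47.2 FPKM in KO 2. Both KO libraries were far above both CTRL libraries. Its mean went up from 15.8 ± 1.70 to 41.9 ± 7.44 FPKM (SD, n = 2 per group), or 2.65-fold, and the log2 difference was 1.34 (standard error 0.14, adjusted p 0.0306). It ranked 20 from the top by fold change among the 11399 genes tested. At least 718 fragments stood behind its value in each library.

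Gzma, a granzyme of tryptase type (ENSMUSG00000023132, chromosome 13, 113093825 to 113100981, minus strand), was at 6.49 and 6.71 FPKM in the CTRL libraries, compared with 12.1 and 17.8 FPKM in the KO libraries. The CTRL libraries were nearly equal, whereas the KO libraries differed from each other by slightly more than KO 1 differed from CTRL. Its mean went up from 6.60 ± 0.15 to 14.9 ± 4.05 FPKM (SD, n = 2 per group), or 2.26-fold, and the log2 difference was 1.04 (standard error 0.18, adjusted p 0.0397). Its adjusted p was 0.0527 when the variance trend was left out of the fit.

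Gzmk, a further granzyme of tryptase type next to Gzma on chromosome 13 (ENSMUSG00000042385, 113171608 to 113225908, minus strand), was at 0.770 and 0.6197 FPKM in CTRL libraries 1 and 2, against 1.82 and 1.60 FPKM in KO. It was the member with the lowest level in CTRL, and its call is not independent of the filter on low values, which neither CTRL library passed. At least 20, 17, 51 and 45 fragments stood behind these values in CTRL 1, CTRL 2, KO 1 and KO 2. The mean was 0.695 ± 0.11 FPKM in CTRL and 1.71 ± 0.16 FPKM in KO (SD, n = 2 per group), and the log2 difference was 0.68 (standard error 0.13, adjusted p 0.0443). With a pseudocount of 0.1 the fold change was 1.19, and with limma-voom on fragments recovered from the FPKM values it was 1.28, since a pseudocount of 1 is larger than the CTRL values. The gene body of Gzmk overlaps Esm1 on the other strand, without shared exon bases. Esm1 was at 0.174 and 0.0275 FPKM in the CTRL libraries, compared with 0.6195 and 0.456 FPKM in KO, with at least 6, 1, 23 and 17 fragments. The use of strand in the counting was not stated, and the part of Esm1 in the value of Gzmk was not tested.

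Gzmm, a granzyme mainly of NK cells (ENSMUSG00000054206, chromosome 10, 79689020 to 79695261, plus strand), was at 1.11 and 1.14 FPKM in CTRL libraries 1 and 2, against 1.45 and 0.899 FPKM in KO. One KO library lay above and the other below both CTRL libraries. Its log2 fold change was 0.02 (95% interval -0.41 to 0.45, adjusted p 0.945). The interval leaves room for a change in either direction.

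The summed FPKM of all 10 granzyme genes in the table was 28.5 and 25.5 in CTRL 1 and CTRL 2 and 53.6 and 69.7 in KO 1 and KO 2. Gzmb made up 59.6% and 57.4% of this sum in CTRL and 68.3% and 67.7% in KO. Gzma held 22.7% and 26.3% in CTRL and 22.5% and 25.5% in KO, a share that overlapped between genotypes. Of the 6 granzymes outside the set, Gzmc alone was tested, and it was at 2.71 and 2.19 FPKM in the CTRL libraries, compared with 1.43 and 2.11 FPKM in the KO libraries (-0.33 on the log2 scale, adjusted p 0.236). Its share of the sum was 9.49% and 8.61% in CTRL and 2.66% and 3.03% in KO. Gzmd and Gzmn were listed at 0 in all 4 libraries, and Gzme, Gzmf and Gzmg were under 0.3 FPKM.

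**Figure D2:**
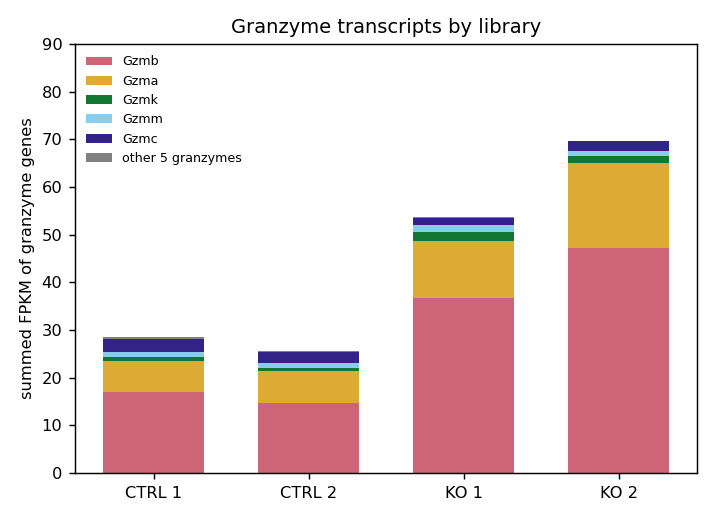
Stacked bars of the FPKM of each granzyme gene in the 4 libraries. The sum was 28.5 and 25.5 in CTRL and 53.6 and 69.7 in KO, and Gzmb and Gzma made up most of it in each library.

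The sequences before the start sites of the 3 granzyme genes that rose are shown with that of Prf1, which did not pass the threshold, to compare genes whose products act together. Each is the 250 bases before the RefSeq start on GRCm38.p6, read in the direction of the gene. Gzmb is at chr14:56262335-56262584 on the minus strand, Gzma at chr13:113100982-113101231 on the minus strand, Gzmk at chr13:113180966-113181215 on the minus strand and Prf1 at chr10:61297586-61297835 on the plus strand. Capitals mark TGTGGT or its complement (the core of RUNX motifs), TGANTCA (AP-1) and GGTGTGA or its complement (T-box), searched on both strands.
Gzmb: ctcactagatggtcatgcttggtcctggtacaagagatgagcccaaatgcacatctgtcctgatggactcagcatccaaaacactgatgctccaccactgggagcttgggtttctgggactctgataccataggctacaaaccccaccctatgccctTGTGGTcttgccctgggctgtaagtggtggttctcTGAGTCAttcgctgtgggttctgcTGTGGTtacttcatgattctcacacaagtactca
Gzma: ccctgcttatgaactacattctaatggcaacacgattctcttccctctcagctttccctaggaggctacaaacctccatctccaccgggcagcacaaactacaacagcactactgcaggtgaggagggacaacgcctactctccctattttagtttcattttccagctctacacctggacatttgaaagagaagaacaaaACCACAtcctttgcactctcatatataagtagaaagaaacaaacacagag
Gzmk: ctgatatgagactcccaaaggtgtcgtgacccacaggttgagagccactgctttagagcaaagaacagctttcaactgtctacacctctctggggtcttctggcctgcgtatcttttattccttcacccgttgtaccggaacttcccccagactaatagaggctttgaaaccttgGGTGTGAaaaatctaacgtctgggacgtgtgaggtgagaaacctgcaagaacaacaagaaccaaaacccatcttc
Prf1: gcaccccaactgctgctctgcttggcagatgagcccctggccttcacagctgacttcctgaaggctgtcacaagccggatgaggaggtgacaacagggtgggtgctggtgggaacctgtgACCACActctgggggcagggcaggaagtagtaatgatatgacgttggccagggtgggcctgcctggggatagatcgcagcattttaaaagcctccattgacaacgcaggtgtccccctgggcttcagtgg

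The Gzmb sequence held TGTGGT at 93 and at 34 bases before the start and TGANTCA at 58 bases, and no motif overlapped another. Gzma and Prf1 held 1 RUNX core each, at 50 and 130 bases, and Gzmk held 1 T-box motif at 75 bases. RefSeq windows were matched for 7 of the 10 members, as 8 windows because Gzmm had 2 start sites. Nkg7 and Gzmm, which did not pass the threshold, held RUNX cores too, and both held the T-box motif. Serpinb9 held none of the 3 motifs. Of 32851 RefSeq windows of the same length, 14.05% held the RUNX core, 6.75% the AP-1 motif and 3.33% the T-box motif. These are matches of letters only.

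Perforin and Nkg7, which act in the same granules as the granzymes, were close to equal in both genotypes. Prf1 (ENSMUSG00000037202, chromosome 10, 61297833 to 61304680, plus strand) was at 2.78 and 2.26 FPKM in CTRL libraries 1 and 2, against 2.22 and 2.57 FPKM in KO. The libraries of the 2 genotypes overlapped, with a log2 fold change of -0.05 (95% interval -0.38 to 0.28, adjusted p 0.811). Nkg7 (ENSMUSG00000004612, chromosome 7, 43437073 to 43438249, plus strand) was at 21.0 and 22.9 FPKM in the CTRL libraries, compared with 20.1 and 24.7 FPKM in KO. The KO libraries lay on both sides of CTRL, with a log2 fold change of 0.02 (95% interval -0.27 to 0.31, adjusted p 0.904). For Prf1, Nkg7, Gzmm and Klrd1 the sign of the fold change turned when single libraries were left out. The direct comparison of Gzmb with Prf1 used their ratio, which was 6.13 and 6.46 in CTRL and 16.5 and 18.4 in KO. The ratio did not overlap between genotypes, and the exact permutation test (two-sided p 0.333) cannot give a smaller p with 2 libraries per group. This ratio was not planned before the values were seen. It restates the fold changes of Gzmb and Prf1 and adds no further support.

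**Figure D3:**
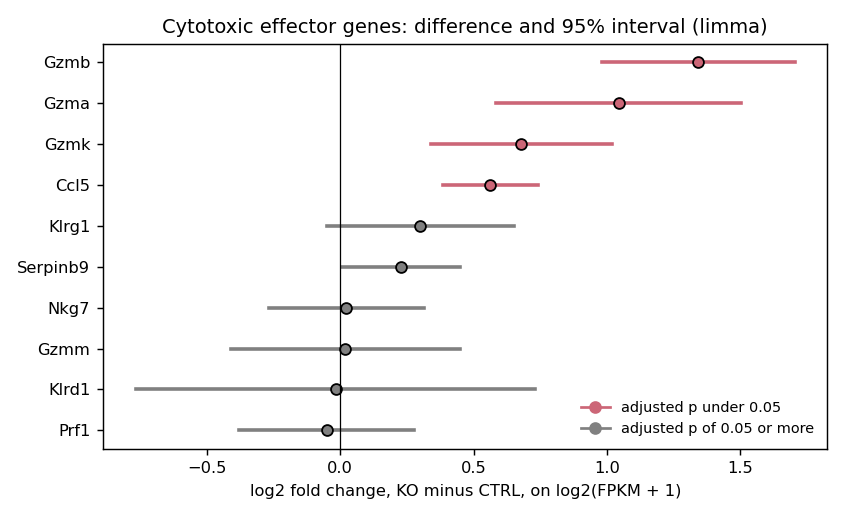
Log2 fold change of each gene (points, KO minus CTRL on log2(FPKM + 1)) with its 95% interval from limma (lines), red where the adjusted p was under 0.05. The 4 called genes range from 0.56 for Ccl5 to 1.34 for Gzmb, and the interval of Klrd1, from -0.77 to 0.73, is the widest.

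Ccl5, a chemokine released by activated T cells that attracts other leukocytes, was the most abundant member. Ccl5 (ENSMUSG00000035042, chromosome 11, 83525778 to 83530518, minus strand) was at 43.7 and 46.9 FPKM in CTRL libraries 1 and 2, against 70.0 and 64.7 FPKM in KO. Both KO libraries lay well above both CTRL libraries. Its mean went up from 45.3 ± 2.28 to 67.4 ± 3.74 FPKM (SD, n = 2 per group), or 1.49-fold, and the log2 difference was 0.56 (standard error 0.07, adjusted p 0.0346). This was the smallest standard error among the members.

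Klrg1, an inhibitory lectin receptor for cadherins (ENSMUSG00000030114, chromosome 6, 122270596 to 122282882, minus strand), was at 38.4 and 50.4 FPKM in CTRL libraries 1 and 2, against 52.1 and 56.8 FPKM in KO. The CTRL libraries differed from each other by more than the lower KO library differed from the higher CTRL library. Its log2 fold change of 0.30 (95% interval -0.05 to 0.65, adjusted p 0.192) did not pass the threshold. Without CTRL 1 it was 0.11 and without CTRL 2 it was 0.49, so its size rested on which CTRL library was used. Klrd1, which encodes CD94, the partner of NKG2 receptors (ENSMUSG00000030165, chromosome 6, 129591782 to 129598775, plus strand), was at 2.50 and 0.967 FPKM in the CTRL libraries, compared with 1.41 and 1.79 FPKM in KO. Both KO libraries lay between the CTRL libraries, with at least 29 to 71 fragments per library, and the log2 fold change was -0.02 (adjusted p 0.972).

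Serpinb9, the inhibitor that protects lymphocytes from their own granzyme B (ENSMUSG00000045827, chromosome 13, 33003250 to 33017957, plus strand), was at 7.81 and 7.16 FPKM in CTRL libraries 1 and 2, against 9.35 and 8.53 FPKM in KO. Both KO libraries were above both CTRL libraries, by a small margin. The log2 fold change of 0.23 (95% interval 0.01 to 0.45, unadjusted p 0.0458 by limma) had an adjusted p of 0.136. Of all genes tested, 34.7% had an unadjusted p under 0.05 by limma, and 64.5% had libraries that did not overlap between genotypes. The ratio of Gzmb to Serpinb9, also not planned beforehand, was 2.18 and 2.04 in CTRL and 3.92 and 5.53 in KO.

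By level, the members spanned from 0.695 FPKM (Gzmk) to 45.3 FPKM (Ccl5) in CTRL. The order in CTRL was Ccl5, Klrg1, Nkg7, Gzmb, Serpinb9, Gzma, Prf1, Klrd1, Gzmm and Gzmk. Neighbours in this order whose libraries overlapped were Ccl5 and Klrg1, Prf1 and Klrd1, and Klrd1 and Gzmm. In KO, Gzmb stood above Nkg7, Gzma above Serpinb9, and Gzmk above Klrd1 and Gzmm, although the libraries of Gzmk and Klrd1 and those of Klrd1 and Gzmm overlapped. Among all genes tested, the mean FPKM of Ccl5 was at the 87.96th percentile, that of Gzmb at the 74.4th and that of Gzmm at the 3.13th.

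The 4 calls rested on 2 libraries per group. When any single library was left out, none of the 4 passed, with adjusted p (limma) from 0.0888 to 0.171, and the pool left alone in its group was assumed to vary like the others. The log2 fold changes without single libraries ranged from 1.17 to 1.52 for Gzmb and from 0.78 to 1.31 for Gzma. They ranged from 0.62 to 0.74 for Gzmk and from 0.51 to 0.62 for Ccl5. Both KO libraries lay above both CTRL libraries for these genes, so their sign could not turn and only the size is informative. No member shared a stretch of 100 bases of transcript with another annotated gene.

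The other genes of the cytotoxic pathway were then read from 7 lists of 63 genes, of which 62 were in the table and 44 were tested. Of these 44, 7 rose and 3 fell (5.1% and 4.65% of all genes tested), and their median log2 fold change was 0.11. Granule content and release, the list with the most genes tested, also had the most calls, 2 higher and 3 lower of 13 tested (median 0.15). Srgn, the serglycin core protein that holds granzymes in the granule, was at 888.9 and 817.6 FPKM in the CTRL libraries, compared with 1134 and 1153 FPKM in the KO libraries (0.42 on the log2 scale, adjusted p 0.0378). Cst7, an inhibitor of cathepsin C, which in turn activates granzymes, was at 97.1 and 89.9 FPKM in CTRL libraries 1 and 2, against 122.0 and 140.0 FPKM in the KO libraries (0.48 on the log2 scale, adjusted p 0.0411).

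The 3 lower genes of this list were a cathepsin and parts of the lysosomal and release machinery. Ctsw, a cathepsin of cytotoxic lymphocytes, was at 43.8 and 46.4 FPKM in the CTRL libraries, compared with 23.5 and 22.0 FPKM in KO. Each genotype was tight, for a log2 difference of -0.96 (standard error 0.07, adjusted p 0.0299), opposite in sign to Gzmb. Ctsw overlaps Fibp on the other strand, and Fibp had a log2 fold change of 0.05. Lamp1, a membrane protein of lysosomes and lytic granules, was at 94.8 and 89.0 FPKM in CTRL libraries 1 and 2, against 69.2 and 58.9 FPKM in the KO libraries (-0.52 on the log2 scale, adjusted p 0.0406). It overlaps Grtp1 on the other strand, which was under 0.7 FPKM. Stxbp2, which is needed for granule fusion, was at 51.0 and 50.9 FPKM in the CTRL libraries, compared with 39.5 and 38.8 FPKM in the KO libraries (-0.37 on the log2 scale, adjusted p 0.0351).

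Of the serpins outside the set, 4 were tested, 2 of them rose (5.1% of all genes tested did), and the median log2 fold change was 0.68. Serpina3g, an inhibitor of cysteine cathepsins, was at 75.4 and 60.1 FPKM in CTRL libraries 1 and 2, against 127.8 and 116.7 FPKM in the KO libraries (0.85 on the log2 scale, adjusted p 0.0351). Related genes hold 3.49% of its 100-base stretches as well, and their part in its level was not tested. Serpinb6b was at 15.6 and 13.9 FPKM in the CTRL libraries, compared with 24.3 and 23.2 FPKM in the KO libraries (0.66 on the log2 scale, adjusted p 0.0346). Both genes had KO libraries far above CTRL, and for all 4 serpins tested the libraries of the genotypes did not overlap, as for 64.5% of all genes tested.

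Of the transcription factors listed, 9 were tested, 3 rose and 0 fell (median 0.39), beside 5.1% called higher and 4.65% called lower of all genes tested. Irf4, a factor of effector Treg differentiation, was at 18.03 and 16.7 FPKM in CTRL libraries 1 and 2, against 35.7 and 28.0 FPKM in the KO libraries (0.83 on the log2 scale, adjusted p 0.0355). Batf, its partner on DNA, was at 79.7 and 72.9 FPKM in the CTRL libraries, compared with 107.6 and 108.2 FPKM in the KO libraries (0.50 on the log2 scale, adjusted p 0.0346). Runx3, a factor of the CD8 T cell programme, was at 22.0 and 24.4 FPKM in CTRL libraries 1 and 2, against 30.1 and 32.7 FPKM in the KO libraries (0.42 on the log2 scale, adjusted p 0.0430). The T-box factors Tbx21 and Eomes, which drive cytotoxic genes in CD8 T and NK cells, differed by 0.15 (adjusted p 0.296) and -0.05 (adjusted p 0.792) on the log2 scale. Prdm1, of the same list, was at 7.83 and 5.36 FPKM in CTRL libraries 1 and 2, against 10.7 and 10.1 FPKM in the KO libraries. Its log2 fold change of 0.60 had an adjusted p of 0.0779 by limma, whereas limma-voom called it. None of the 10 pathway calls held by limma when any single library was left out (adjusted p 0.0888 to 0.163) or with no filter on low values. Without the variance trend the calls of Srgn (adjusted p 0.0520), Cst7 (0.0588), Lamp1 (0.0578) and Runx3 (0.0608) were lost, and with quantile normalization that of Cst7 (0.0504).

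Of the 17 genes tested in the remaining 3 lists, 0 passed the threshold by limma, 3 had an unadjusted p under 0.05 (34.7% of all genes tested did), and limma-voom called 0. Of the death ligands and cytokines, 5 were tested with a median of -0.13, and Lta was at 57.5 and 74.0 FPKM in the CTRL libraries, compared with 45.2 and 50.2 FPKM in the KO libraries (-0.45 on the log2 scale, adjusted p 0.0873). Of the chemokines and their receptors, 4 were tested with a median of 0.07, and Ccl3 had a log2 fold change of 0.19 (adjusted p 0.692). Of the killer cell receptors and their ligands, 8 were tested with a median of 0.04, and H2-T23, the ligand of the CD94 receptors, was at 289.5 and 280.6 FPKM in CTRL libraries 1 and 2, against 318.5 and 328.9 FPKM in the KO libraries (0.18 on the log2 scale, adjusted p 0.0875).

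**Figure D4:**
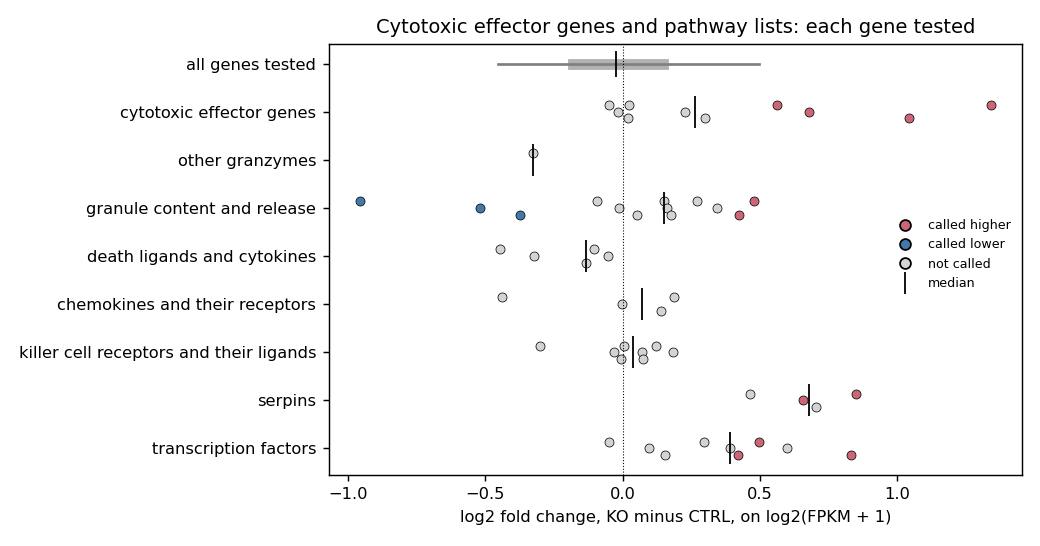
Log2 fold changes of the 10 cytotoxic effector genes and of the tested genes of 7 pathway lists (points), with list medians (black ticks). The top line spans the 5th to the 95th percentile of all 11399 genes tested (-0.45 to 0.50) and the thick part the 25th to the 75th (-0.18 to 0.15), and the granule list is the one with genes called in both directions.

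Markers of other cells that express cytotoxic genes were examined next. Of the 2 CD8 T cell markers, Cd8a was at 0.156 and 0.194 FPKM in the CTRL libraries, compared with 0.326 and 0.216 FPKM in KO. Cd8b1 was higher, at 8.33 and 11.2 FPKM in CTRL libraries 1 and 2, against 10.3 and 11.1 FPKM in the KO libraries (0.13 on the log2 scale, adjusted p 0.562). Their summed level was 8.49 to 11.4 FPKM in CTRL and 10.6 to 11.3 FPKM in KO. Of 9 NK cell markers, all in the table, 4 were tested, and 0 were called by limma or limma-voom, with 0 at an unadjusted p under 0.05. Their summed level was 61.7 to 81.7 FPKM in CTRL and 49.2 to 92.5 FPKM in KO, most of it Fcer1g and Tyrobp, which myeloid cells express too. Ncr1, a receptor that defines NK cells, was at 0.688 and 0.710 FPKM in the CTRL libraries, compared with 0.194 and 0.424 FPKM in KO, and Klra4 was at 0.565 and 0.446 FPKM in CTRL libraries 1 and 2, against 0.0875 and 0.145 FPKM in KO. Klrb1c, which was tested, was at 1.88 and 1.56 FPKM in CTRL and 1.95 and 1.96 FPKM in the KO libraries (0.12 on the log2 scale, adjusted p 0.512). Klre1 was at 0.868 and 1.08 FPKM in CTRL libraries 1 and 2, against 0.248 and 0.587 FPKM in KO. Thus Ncr1, Klra4 and Klre1 were lower and Klrb1c was higher in both KO libraries. Such a separation was found in 64.5% of all genes tested. Ncr1, Klra4 and Klre1 were under the filter on low values and were not tested. The part of NK cells in the values of the cytotoxic genes was not tested. Of 4 markers of gamma delta T and NKT cells, Zbtb16 was in the table, at 0.0496 to 0.0775 FPKM.

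**Figure D5:**
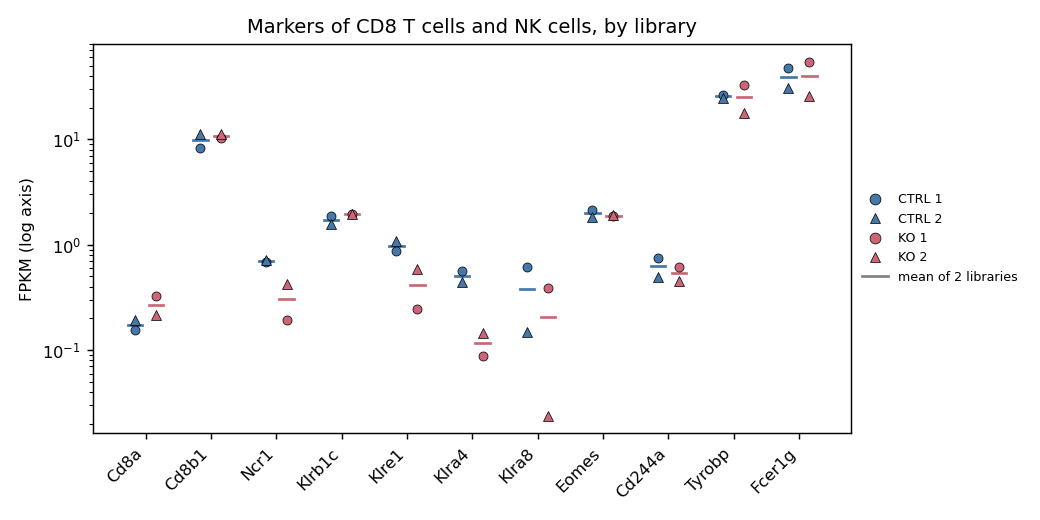
FPKM of CD8 T cell and NK cell markers on a log axis, with circles and triangles for libraries 1 and 2, blue for CTRL and red for KO, and lines for means. Ncr1, Klre1 and Klra4 are lower and Klrb1c and Cd8a are higher in both KO libraries, and Cd8b1, Klra8, Eomes, Cd244a, Tyrobp and Fcer1g overlap between genotypes.

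Among markers of cells that do not carry the granzyme programme, the myeloid and erythroid sums followed the library number. The B and plasma cell sum followed it within each genotype, and was also higher in both KO libraries than in both CTRL libraries. The summed level of 6 myeloid markers was 102.7 to 166.9 FPKM in CTRL and 83.9 to 219.5 FPKM in KO, with Lyz2 and Csf1r the highest, and their part in the values of the cytotoxic genes was not tested. The sum of 8 B and plasma cell markers, most of it Ighm (log2 fold change 0.67, adjusted p 0.0629) and Igha, was 763.5 to 1083 FPKM in CTRL and 1273 to 1549 FPKM in KO, and of the 7 tested 0 were called by limma, 2 had an unadjusted p under 0.05, and limma-voom called Ighm. The 3 erythroid markers in the table summed to 2.21 to 12.2 FPKM in CTRL and 5.02 to 19.9 FPKM in KO, most of it Hba-a1, followed by Alas2. No tested marker of any of these lists was called by limma, and of all 29 tested 5 had an unadjusted p under 0.05, compared with 34.7% of all genes tested. The 4 T cell markers in the table summed to 1292 to 1333 FPKM in CTRL and 1177 to 1248 FPKM in KO, with Cd3g the highest, and the 5 Treg markers, led by Ctla4 and Tnfrsf18, to 1068 to 1137 FPKM in CTRL and 1089 to 1178 FPKM in KO. The part of B cell transcripts in the values of the cytotoxic genes was not tested.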

How the data were processed

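The authors mapped 150 bp read pairs from oligo(dT)-selected RNA to mm10 with HISAT2 2.2.1, counted them per gene with featureCounts 2.0.1 and deposited FPKM for 24087 genes in 4 libraries. Annotation version, gene length, strand setting and multi-mapped reads were not given in the sources used here. The control columns, named WT, were read as the CTRL libraries of the same number. Low FPKM stood in whole-number ratios, which gave the fewest fragments behind each value (all 19888 genes above 0 within 0.05 fragments).

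KO was compared with CTRL by limma 3.58.1 in R 4.3.3 (lmFit, eBayes with an intensity trend, two-sided, Benjamini-Hochberg over 11399 genes) on log2(FPKM + 1), which understates changes of low genes. The edgeR test named in the methods was replaced by limma, since FPKM are not counts. Positions and overlaps came from GENCODE vM21 (GRCm38), and start sites from RefSeq. The planned comparison of proteins was not made, since no protein sequences were used here.

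Genes named were Setd2, the 10 members, all called genes of the pathway lists (otherwise the gene with the highest mean FPKM) and the 2 highest markers per list. Ncr1, Klra4, Klre1, Klrb1c, Klra8, Cd244a, Esm1, Fibp, Grtp1, Tbx21, Eomes, Prdm1, Foxp3 and granzymes under the filter were named after their values were seen. The members and lists were chosen with earlier results of these data known, and 1 gene of a list is not reported here. Alternatives were other pseudocounts, filters, scalings and variance models, limma-voom, a replicate term and leaving out each library. The procedure was run on simulated data with a single variance setting for all genes and no effect of library number. Changed genes were placed only among genes with many fragments, so low genes such as Gzmk were not covered.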

Additional observations from a re-analysis of the deposited data

How the results depend on the processing

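Gzmb, Gzma, Gzmk and Ccl5 kept a log2 fold change above 0 in each setting in which they were tested. Where a library was left out this was fixed, since their KO libraries all lay above their CTRL libraries. Gzmk, Gzmm, Prf1 and Klrd1 were not tested where a mean above 5 FPKM was required. With no filter on low values, 0 genes were called higher and 0 lower by limma among all genes tested (4463 had an unadjusted p under 0.05), and so 0 members and 0 pathway genes were called in either direction; the adjusted p was then 0.0860 for Gzmb and 0.0976 for Gzma. Without the variance trend, 315 genes and 4 pathway genes were called higher. With limma-voom on recovered fragments, 878 genes were called higher and 1008 lower. The causes were not tested. Without 1 library, 0 to 1 genes were called higher and 0 to 1 lower among all genes, and 0 to 0 members and 0 to 0 pathway genes. Of all calls, 52.3% were higher as deposited, 58.1% after median-ratio scaling, 46.8% with the same summed FPKM in each library, 46.4% without the variance trend and 46.6% with limma-voom.

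The labels tie no replicate number to a litter or a day, so the numbers pair the samples by number only (Pearson correlation of deviations 0.342, Spearman 0.0553, across genes). With a replicate block in the fit, 968 genes were called higher and 805 lower, 10 pathway genes were called higher, and the same 4 members were called.

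Among genes near 0 change, Klrd1 reversed to 0.0194 with a pseudocount of 0.1 and to 0.0405 with limma-voom. Without single libraries the log2 fold change ranged from -0.43 to 0.40 for Klrd1, from -0.156 to 0.0548 for Prf1, from -0.12 to 0.17 for Nkg7 and from -0.17 to 0.20 for Gzmm. The median of the chemokine list, 0.0699 as reported, was -0.125 where a mean above 5 FPKM was required and ranged from -0.193 to 0.316 without single libraries, and that of the killer cell receptor list ranged from -0.00824 to 0.0941. The cause was not tested. Gzmk and Klrd1 rested on the fewest fragments, at least 17 to 51 and 29 to 71 per library.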

Other observations

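Pairs of granule genes are given here as ratios of FPKM in each library. The ratio of Gzma to Prf1 was 2.34 and 2.96 in CTRL and 5.43 and 6.93 in KO. The ratio of Gzmb to Gzma was 2.62 and 2.18 in CTRL and 3.04 and 2.65 in KO, so the higher CTRL and the lower KO library were close to each other. The ratio of Gzmb to Ctsc, the cathepsin that activates granzymes, was 0.412 and 0.434 in CTRL and 0.778 and 1.24 in KO. The ratio of Ccl5 to Nkg7 was 2.08 and 2.05 in CTRL and 3.49 and 2.62 in KO. These ratios were chosen after the values were seen, and with 2 libraries per group an exact permutation test cannot give a two-sided p below 0.333.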
